A study of Capra hircus with 12 samples.

Results

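The muscle miRNAs (myomiRs) of the secondary hair follicle (SHF), the small follicle that grows the cashmere fiber, were described over an annual cycle of cashmere growth. Members were chosen by name as every listed arm of miR-1, miR-133a, miR-133b, miR-206, miR-208a, miR-208b and miR-499. This gave 6 of the 376 miRNAs in the count tables: chi-miR-1, chi-miR-133a-3p, chi-miR-133a-5p, chi-miR-133b, chi-miR-206 and chi-miR-499-5p. The tables used here list 0 arms of miR-208a or miR-208b. Of the 6 members, 5 passed the filter on low counts (more than 5 CPM, the count scaled by the library total, in at least 2 libraries) and were tested, and chi-miR-206 was not.

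The 12 small RNA libraries came from SHFs of Liaoning cashmere goats aged 1.5 years, with 1 female and 1 male library in each of 6 months. February and March were taken as telogen, the resting phase (4 libraries), May as early anagen and September as mid-anagen, the growing phase (2 libraries each), and November and December as catagen, the regressing phase (4 libraries). No animal carried a treatment or an engineered allele, and the follicles had been dissected out of body skin under a microscope. The methods describe 3 goats of each sex per time point, and how they were combined into libraries is not given in the sources used here, so the p-values measure the spread between these libraries.

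In vertebrates, miR-1, miR-133a, miR-133b and miR-206 are made in striated muscle under myogenic transcription factors, where miR-1 and miR-206 favor differentiation and miR-133 favors myoblast proliferation. miR-1 and miR-133a are encoded side by side, as are miR-206 and miR-133b, and miR-499 lies in an intron of the myosin gene MYH7B. In the goat RefSeq gene table, MIR1 and MIR133A were nearest neighbors, MIR133B and MIR206 were nearest neighbors, and MIR499 lay inside MYH7B. miR-1 and miR-206 share a seed, and miR-133a-3p and miR-133b differ little in sequence, so their counts may share reads. How reads matching both were assigned is not given in the sources used here. The comparisons below ask whether the members kept a fixed ratio to each other over the year, as RNA of a single unchanging source would, or moved apart.

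Library depth ranged from 3135292 to 5788032 counts (median 4469051), and the deposited TPM is the count scaled by the library's total miRNA counts, with no length term. A floor of 3 counts corresponded to a TPM of 0.518 to 0.957. As a check for a library deposited more than once, the female and male counts of each month were compared. All these pairs differed beyond counting noise (chi-square per degree of freedom 65.2 to 635). Libraries of different months were not compared in this way, and each library was counted separately. Markers of keratinocytes (6 miRNAs, summed TPM 56735 to 96687) and of smooth muscle and fibroblasts (9 miRNAs, 118318 to 148888) were abundant in all 12 libraries, whereas those of endothelium (2 miRNAs) summed to 8819 to 12699, of leukocytes (3 miRNAs) to 89.1 to 267, and of erythrocytes (2 miRNAs) to 5.41 to 115. The 6 muscle miRNAs together summed to between 1902 and 3614. None of the markers listed for any of these cell types was at 0 in any library, except chi-miR-206 in 1 library. Of the markers sought, miR-205 (keratinocytes), miR-142 (leukocytes) and miR-486 (erythrocytes) had no arm listed under these names, so the sums leave them out.

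chi-miR-1 was the most abundant member and ranked 39 of 376 by mean TPM. It held 90.4% of all counts of the members. In telogen, its TPM was 2917 and 2948 in the female and male February libraries, and 3168 and 1627 in the female and male March libraries. In May it was 1752 in the female and 2339 in the male library, and in September 3270 and 3184. In November it was 3201 and 3279, and in December 3247 and 2260. The male March and male December libraries were thus far below the other libraries of their phases, and both May libraries were below both September libraries. Telogen averaged 2665 ± 701 and catagen 2997 ± 492 (SD, n = 4 each), and May averaged 2045 ± 416 and September 3227 ± 60.9 (SD, n = 2 each).

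chi-miR-133a-3p, the main arm of the miRNA encoded next to miR-1, ranked 97 of 376 and did not follow the order of chi-miR-1. Its TPM was 206.5 and 309 in February and 353 and 172 in March, the female library first. It was 259 and 317 in May, 132.6 and 147 in September, 184 and 163 in November, and 224 and 144.4 in December. The September libraries, among the highest for chi-miR-1, were thus among the lowest for chi-miR-133a-3p, and both were below both May libraries. Telogen averaged 260.03 ± 84.9 and catagen 179 ± 34.1 (SD, n = 4 each), and May averaged 288 ± 41.3 and September 139.6 ± 9.91 (SD, n = 2 each).

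chi-miR-133a-5p, the opposite arm of the same precursor, was present at a TPM of 2.54 to 8.56 and ranked 275 of 376. It exceeded 5 CPM in 3 libraries, 2 of telogen and 1 of May, and so was tested only through the phases in which it was higher. chi-miR-133b, the partner of miR-206, ranked 248 of 376 with a TPM from 3.30 in the male December library to 13.6 in the female March library. Its counting error was wide, as 69 counts in the female March library gave a 95% exact Poisson interval of 10.5 to 17.1 TPM. These intervals cover counting error only, since the reads carry no molecular identifiers.

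chi-miR-499-5p, the miRNA of the MYH7B intron and a mark of slow muscle fibers and heart, ranked 140 of 376. Its TPM was 78.4 and 69.2 in February, 63.2 and 93.1 in March, 88.2 and 72.1 in May, 48.5 and 51.0 in September, 61.4 and 56.9 in November, and 68.5 and 54.7 in December, the female library first. On this scale its highest value was in the male March library, in which chi-miR-1 was at its lowest, and both September libraries were below all 10 others. After TMM normalization neither held, as the female February library was highest (78.0 against 75.6 CPM in male March) and the female September library (57.2) lay above the male May library (56.0).

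chi-miR-206, a miRNA of skeletal muscle that shares the seed of miR-1, was near the counting floor in most libraries. It had 20 counts in the female and 4 in the male February library, 47 in the female and 1 in the male March library, and between 0 and 5 in each of the other 8. Only the female February library, at a TPM of 3.46 (95% exact Poisson interval 2.11 to 5.34), and the female March library, at 9.23 (6.78 to 12.3), stood above the range of the rest. In the female May library it had 0 of 4136374 counts, which allows a TPM of up to 0.892 (upper bound of the 95% exact Poisson interval). Summed over phases, 72 counts in telogen and 6 in catagen gave a ratio of 10.5 (95% exact interval 4.59 to 29.5, counting error only), and 20 and 47 of the 72 counts came from these 2 female libraries. Without a filter on low counts, edgeR's quasi-likelihood test gave a log2 fold change of 3.01 (SE 1.05, adjusted p = 0.0488) from catagen to telogen, a fitted value that depends on the prior count because each catagen library had 1 to 3 counts.

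**Figure D1:**
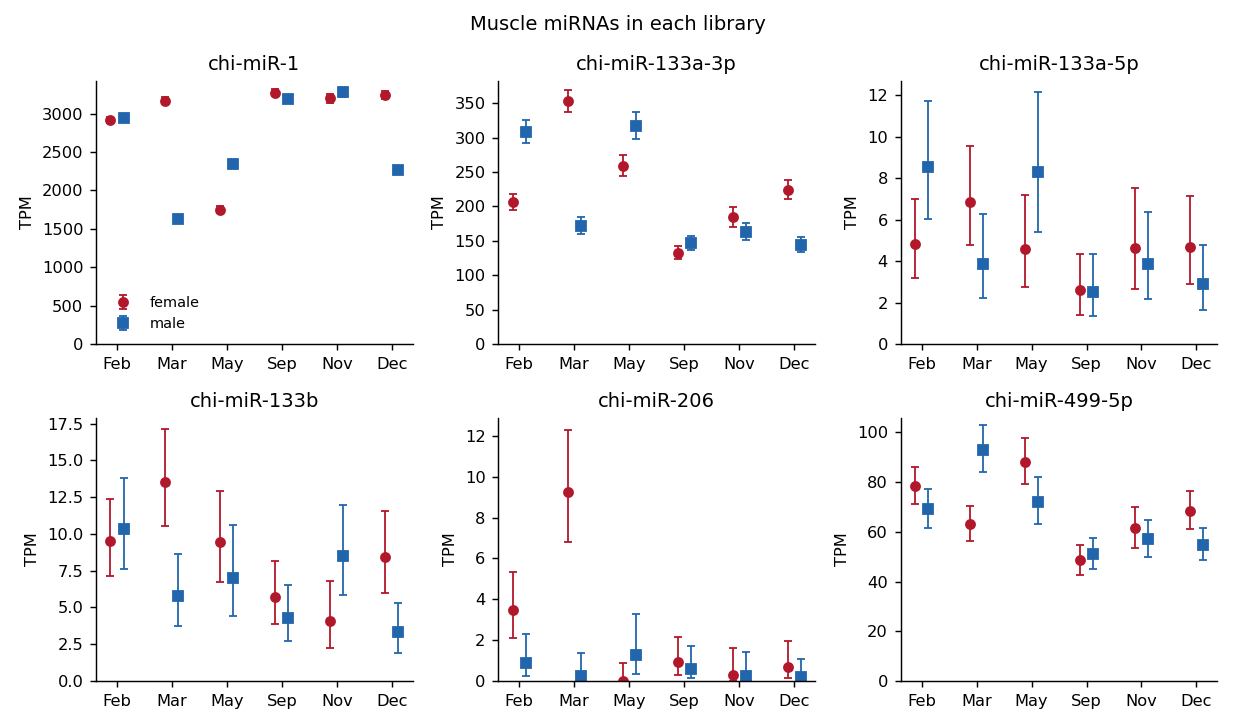
TPM (counts scaled by the total miRNA counts of a library, linear axes from 0) of the 6 muscle miRNAs in the 12 libraries by month, with circles for female and squares for male libraries and bars for 95% exact Poisson intervals of the counts. chi-miR-1 was lowest in the male March and female May libraries, chi-miR-133a-3p and chi-miR-499-5p were low on this scale in both September libraries, and chi-miR-206 stood out in the female March library at 9.23.

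Differences between phases were tested across 300 miRNAs with edgeR's quasi-likelihood test on counts after TMM normalization, and a miRNA was called when its adjusted p (Benjamini-Hochberg) was under 0.05 and its change at least 2-fold. Because bulk RNA was sequenced, fewer cells of a type and less RNA per cell cannot be told apart. From May to September, 1 of the 5 members tested was called, beside 18.3% of all miRNAs. chi-miR-1 rose with a log2 fold change of 1.19 (SE 0.33, adjusted p = 0.0146, edgeR). This call did not hold without the female May library (0.77, adjusted p = 0.190), without the female September library (1.12, adjusted p = 0.0811) or when counts were scaled by library totals (0.66, adjusted p = 0.0799).

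The other members were not called from May to September, and their fitted differences lay below 0. The log2 difference was -0.52 for chi-miR-133a-3p (SE 0.33, adjusted p = 0.246), -0.77 for chi-miR-133a-5p (SE 0.46, adjusted p = 0.220), -0.19 for chi-miR-133b (SE 0.52, adjusted p = 0.810) and -0.16 for chi-miR-499-5p (SE 0.20, adjusted p = 0.551), all by edgeR. The median of the 5 members was -0.19, beside 0.07 over all miRNAs tested. With library totals as the scale, the median of all miRNAs moved to -0.46, and chi-miR-133a-3p (-1.05, adjusted p = 0.0213) and chi-miR-133a-5p (-1.30, adjusted p = 0.0384) were then past the threshold. As chi-miR-133a-5p had entered the test through telogen and May libraries, its value is no support for a fall. Relative to the median of all miRNAs, which removes a shift shared by all of them by construction, chi-miR-1 stood at 1.12 and chi-miR-133a-3p at -0.58 with TMM.

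From May to catagen, 1 of 5 members was called, beside 16.7% of all miRNAs, in a comparison that used the same May libraries. chi-miR-1 rose again, with a log2 fold change of 1.12 (SE 0.29, adjusted p = 0.0105, edgeR). The call was lost without the female May library (0.73, adjusted p = 0.187), and the change was below 2-fold without the male March library (0.99), in a fit of May and catagen alone (0.93) and with a filter of 50 CPM (0.91). With library totals it was 0.55 (adjusted p = 0.0887). The remaining 4 members lay between -0.13 and 0.15 with TMM and between -0.69 and -0.41 with library totals, which turned chi-miR-133b and chi-miR-499-5p negative.

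No member was called in the other phase comparisons. From catagen to telogen, where 10.7% of all miRNAs were called, chi-miR-1 had a log2 difference of -0.50 (SE 0.23, adjusted p = 0.0981, edgeR) and the other 4 members lay between -0.03 and 0.37. From telogen to September, where 9.33% were called, chi-miR-1 stood at 0.58 (SE 0.27, adjusted p = 0.128), and the other members ran from -0.28 for chi-miR-499-5p to -0.91 for chi-miR-133a-5p (adjusted p between 0.106 and 0.278, edgeR). chi-miR-133a-5p passed the threshold there with library totals (-1.22) and without the male March library (-1.20), but it had entered the test through telogen and May libraries alone, so no fall is read from these values. From telogen to May, where 2.33% were called, chi-miR-1 was at -0.61 (SE 0.29, adjusted p = 0.177, edgeR) and the others between -0.47 and -0.07, or between -0.25 and 0.15 with library totals. From September to catagen 0% of all miRNAs were called by edgeR (23 had an unadjusted p under 0.05, and DESeq2 called 1). chi-miR-1 lay there at -0.07 (SE 0.28, adjusted p = 0.950, edgeR) and the others between 0.29 and 0.66.

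**Figure D2:**
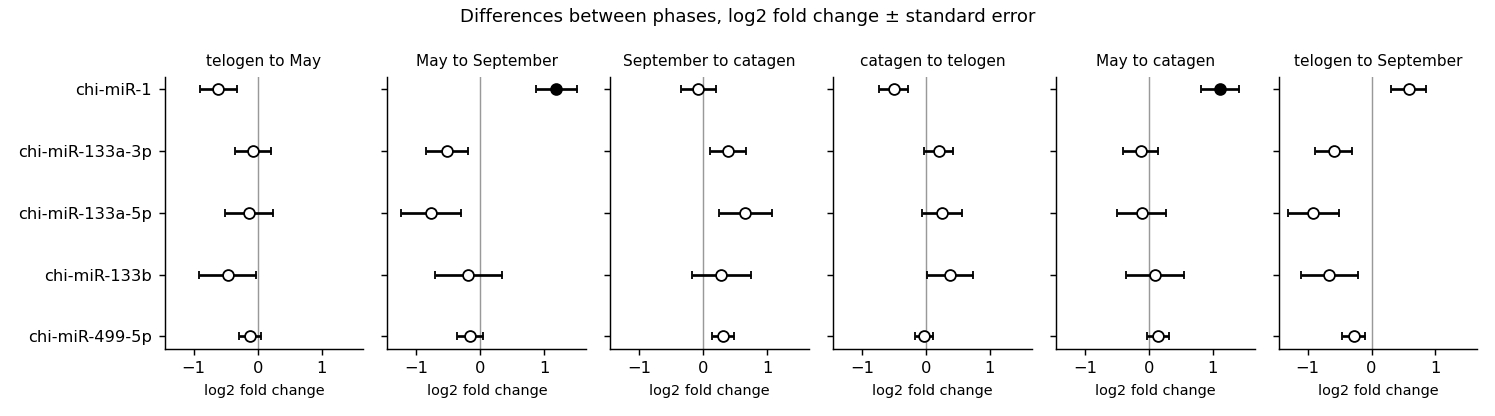
Log2 fold change with its standard error (bars) of the 5 tested muscle miRNAs in the 6 phase comparisons, with filled points for those called and open points for the rest. chi-miR-1 is the single filled point from May to September (1.19) and from May to catagen (1.12), while the other 4 members are open points, between -0.77 and 0.15, in both.

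Ratios of raw counts within a library do not depend on how libraries are scaled. For log2 ratios 1 was added to each count, so those of members with low counts do depend on the scale. There were 14.1 and 9.55 counts of chi-miR-1 for each count of chi-miR-133a-3p in the female and male February libraries, 8.97 and 9.46 in March, 6.76 and 7.37 in May, 24.7 and 21.7 in September, 17.4 and 20.1 in November, and 14.5 and 15.7 in December. All 6 libraries from February to May had fewer chi-miR-1 counts per chi-miR-133a-3p count than all 6 from September to December, a split seen after the values were known. At its boundary, the female February (14.1) and female December (14.5) libraries differed by less than the counting SD of this ratio (0.05 on the log2 scale). How many other miRNAs split in this way against chi-miR-1 was not examined. On the log2 scale, the ratio of chi-miR-133a-3p to chi-miR-1 averaged -2.82 in May and -4.53 in September, and this difference was not tested. The SD of this log2 ratio over all 12 libraries was 0.63.

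Between telogen and catagen, 10 ratios of 2 members were tested with an exact two-sided permutation test. The log2 ratio to chi-miR-1 was higher in telogen by 0.70 for chi-miR-133a-3p, by 0.71 for chi-miR-133a-5p and by 0.92 for chi-miR-133b. In each case the 4 telogen libraries did not overlap the 4 catagen libraries (exact permutation p = 0.0286, the smallest that 4 against 4 can give, adjusted p = 0.0952). These ratios share chi-miR-1 as denominator and are not independent. By edgeR, chi-miR-1 itself had a log2 difference of -0.50 from catagen to telogen, and the numerators had 0.20, 0.25 and 0.37. How many other miRNAs separate in this way against chi-miR-1 was not examined. As chi-miR-133a-5p had entered the test through telogen and May libraries alone, its ratio is no support for a difference. None of the 10 ratios passed after adjustment, which a single ratio at the smallest p could not have done. For chi-miR-499-5p over chi-miR-1 the difference was 0.52 (exact permutation p = 0.143, adjusted p = 0.357), and for chi-miR-499-5p over chi-miR-133a-3p it was -0.18 (exact permutation p = 0.686, adjusted p = 0.762).

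Both arms come from the same miR-133a precursor. The log2 ratio of chi-miR-133a-5p to chi-miR-133a-3p ran from -5.75 to -5.14 over the 12 libraries, with an SD of 0.21. With 13 to 38 counts of chi-miR-133a-5p per library, counting error alone gave 0.34, so a modest change of this ratio was not detectable at this depth. It differed by 0.02 between telogen and catagen (exact permutation p = 0.914). The log2 ratio of chi-miR-133b to chi-miR-133a-3p had an SD of 0.40, beside 0.28 from counting error alone. The log2 ratio of chi-miR-499-5p to chi-miR-133a-3p had an SD of 0.42, beside 0.098 from counting error alone. The extremes of the latter ratio, -2.48 and -0.88, were the female and male March libraries.

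**Figure D3:**
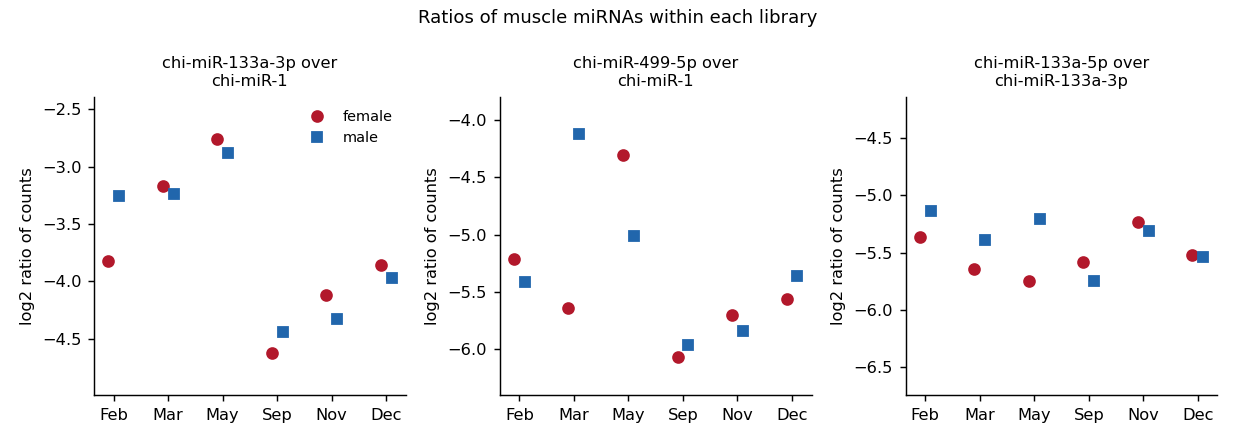
Log2 ratio of the counts (with 1 added to each) of 2 muscle miRNAs in the same library, by month, with circles for female and squares for male libraries and axes of equal span. chi-miR-133a-3p over chi-miR-1 separates the libraries of February to May (-3.82 and above) from those of September to December (-3.86 and below) by less than counting error at the boundary, and chi-miR-133a-5p over chi-miR-133a-3p runs from -5.75 to -5.14.

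Over the 12 libraries, levels (log2 TMM-normalized CPM) of 10 pairs of members were correlated. 1 pair passed the test, chi-miR-133a-3p with chi-miR-133a-5p (Pearson r = 0.90, permutation p = 9e-05, adjusted p = 0.0009, and Spearman rho = 0.94, adjusted p = 0.0003). Without the 2 libraries farthest from the median, r was 0.94. This pair is no support for members moving together, as chi-miR-133a-5p had entered the test through telogen and May libraries alone. chi-miR-133a-3p with chi-miR-133b had r = 0.66 (permutation p = 0.0212, adjusted p = 0.106) and rho = 0.55 (permutation p = 0.0668, adjusted p = 0.283), and r fell to 0.42 without the 2 farthest libraries. The correlation of chi-miR-1 with chi-miR-133a-3p did not pass the test (r = 0.14, permutation p = 0.664, adjusted p = 0.922, and rho = -0.01, permutation p = 0.974), and r was -0.32 without the 2 farthest libraries. For chi-miR-1 and chi-miR-499-5p, r was -0.13 (permutation p = 0.672, adjusted p = 0.922) and rho was -0.03 (permutation p = 0.919), with r = 0.36 without the 2 farthest libraries. On log2(TPM + 1) this pair passed the test with r = -0.71 (permutation adjusted p = 0.0344), as did chi-miR-133a-3p with chi-miR-133b (r = 0.75, permutation adjusted p = 0.0344).

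Within phases the picture for chi-miR-1 differed. When levels were centered on the mean of their phase, chi-miR-1 and chi-miR-133a-3p correlated at r = 0.82 (permutation adjusted p = 0.00363). The permutations treated centered values as freely exchangeable, which centering prevents, so this p may be too small. The correlation rested on the male March library, without which r was 0.52 (permutation adjusted p = 0.351). In that library chi-miR-1, chi-miR-133a-3p, chi-miR-133a-5p and chi-miR-133b were below the female March library by a log2 difference of -1.20, -1.28, -1.02 and -1.42. chi-miR-206 had 1 count there and 47 in the female March library. The female March library was in turn the highest of all libraries for chi-miR-133a-3p and chi-miR-133b. In the male March library chi-miR-499-5p was higher than in the female one by 0.31. The male March library also had the highest summed TPM of the keratinocyte markers (96687) and of the erythrocyte markers (115), and the part of these in the muscle miRNA levels was not tested.

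**Figure D4:**
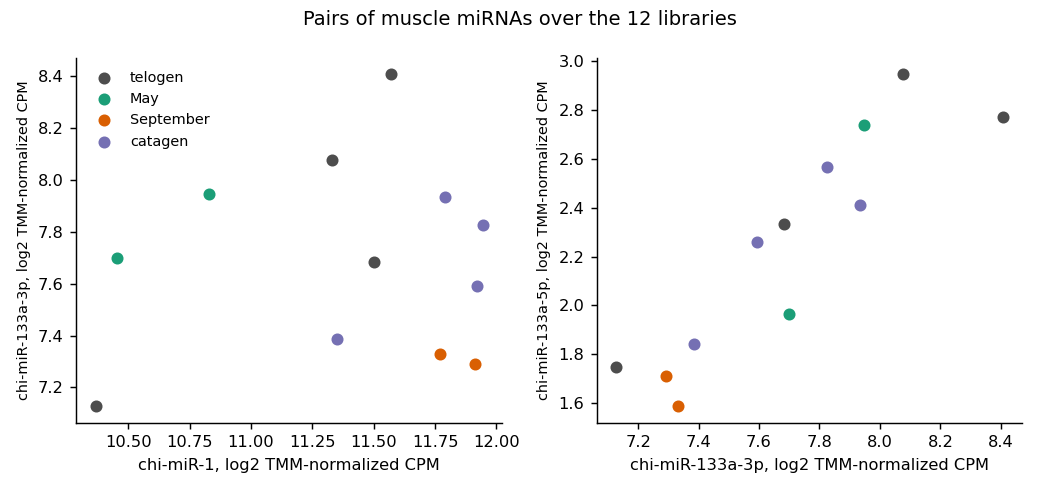
Level of chi-miR-133a-3p against chi-miR-1 (left) and of chi-miR-133a-5p against chi-miR-133a-3p (right) in log2 TMM-normalized CPM, each point a library colored by phase. The left panel shows no common line (r = 0.14), with the September libraries high in chi-miR-1 and low in chi-miR-133a-3p, and the right panel a common line (r = 0.90).

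Between female and male libraries, with month in the fit, 0 of 5 members were called by edgeR, beside 0% of all miRNAs (34 had an unadjusted p under 0.05, and DESeq2 called 0). The log2 difference of male to female was -0.26 for chi-miR-1 (SE 0.17, adjusted p = 0.553, edgeR) and the other 4 members lay between -0.48 and -0.08. On TMM-normalized levels chi-miR-1, chi-miR-133b and chi-miR-499-5p were lower in the male library in 5 of 6 months each, chi-miR-133a-5p in 4 and chi-miR-133a-3p in 3. Such months were not counted over all miRNAs. The median male to female log2 difference of all miRNAs was -0.04 with TMM and 0.05 with library totals. The sex difference in telogen was not distinguishable from that in catagen for any member (adjusted p between 0.375 and 0.969, edgeR), whereas 21 of 300 miRNAs had an adjusted p under 0.05. None of the 10 ratios between members passed an exact two-sided sign-flip permutation test for sex over 6 months (smallest adjusted p = 0.833), but the smallest p this design allows is 0.0312, so a single ratio could not have passed the adjustment over 10.

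The miRNAs whose levels over the 12 libraries were most like those of each member were taken as a description. For chi-miR-1 they were chi-miR-143-3p (Pearson r = 0.94), chi-miR-145-3p (0.91) and chi-miR-155-5p (0.89). miR-143 and miR-145 are best known from smooth muscle but are not confined to it. chi-miR-143-3p, with a mean TPM of 89983, made up most of the sum of the smooth muscle and fibroblast markers, so that sum does not measure these cells alone. 116 of 295 miRNAs outside the members were closer to chi-miR-1 than its nearest member, chi-miR-133b (0.24). chi-miR-133a-3p was closest to its own 5p arm, followed by chi-miR-30b-5p (0.81), chi-miR-143-5p (0.74) and chi-miR-140-5p (0.70). chi-miR-133a-5p was likewise followed by chi-miR-30b-5p (0.70), novel_54 (0.68) and chi-miR-143-5p (0.65). chi-miR-133b was nearest to chi-miR-151-5p (0.77), chi-miR-338-3p (0.71) and chi-miR-143-5p (0.71). chi-miR-499-5p had no close partner, with chi-miR-106a-5p (0.61), chi-miR-135a (0.56) and novel_145 (0.55) as the nearest.

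The opposite arms of the miR-143 precursor therefore stood near different members. chi-miR-143-3p was called in the same comparisons as chi-miR-1, with log2 fold changes of 1.17 (SE 0.20, adjusted p = 0.00131) from May to September and 1.02 (SE 0.17, adjusted p = 0.00109) from May to catagen by edgeR. It was the single miRNA called among the 9 smooth muscle and fibroblast markers in either comparison, beside 18.3% and 16.7% of all miRNAs. chi-miR-143-5p had -0.32 and 0.05 there. Other markers of this list changed from May to September by less than 2-fold, with an adjusted p under 0.05 by edgeR. chi-miR-199a-3p (-0.85), chi-miR-199a-5p (-0.79) and chi-miR-199b-5p (-0.59) fell, and chi-miR-145-3p (0.68) and chi-miR-214-3p (0.53) rose.

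miRNAs with a role in muscle cells but broad expression (27 arms, 25 tested) were called about as often as all miRNAs from May to September, with 4 of 25 beside 18.3%. These 4 rose and 0 fell (29 rose and 26 fell over all miRNAs), namely chi-miR-125b-3p (1.43), chi-miR-24-5p (1.18), chi-miR-29b-3p (1.30) and chi-miR-378-3p (1.43). The same 4 rose from May to catagen (1.27, 1.47, 1.62 and 1.23), beside 16.7% of all miRNAs (27 rose and 23 fell) and again against the same May libraries. From telogen to September chi-miR-125b-3p (1.12) and chi-miR-378-3p (1.03) rose, beside 9.33% of all miRNAs, and from telogen to May chi-miR-29b-3p fell by 1.91 on the log2 scale, beside 2.33%. None was called in the other 3 comparisons. The medians of these 25 miRNAs were 0.15 from May to September and 0.04 from May to catagen, beside 0.07 and 0.08 over all miRNAs.

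Calls among the marker lists of other cell types are read against 18.3% of all miRNAs from May to September, 10.7% from catagen to telogen, 9.33% from telogen to September and 2.33% from telogen to May. Of 6 keratinocyte miRNAs, chi-miR-200a rose from May to September (1.43) and chi-miR-141 fell by 1.04 from telogen to September. Of 3 leukocyte miRNAs, chi-miR-223-5p rose from May to September (1.38), chi-miR-223-3p rose from catagen to telogen (1.36), and both fell from telogen to May, the 5p arm with a log2 fold change of -1.59 and the 3p arm with -1.64. Of 2 erythrocyte miRNAs, chi-miR-451-5p rose from catagen to telogen (1.45), and of 2 endothelial miRNAs none was called. The part of these cell types in the levels of the muscle miRNAs was not tested.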

How the data were processed

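After adapter trimming and removal of reads with unknown bases, the authors aligned reads to CHIR_2.0, with miREvo and mirDeep2 used for identification and Bowtie 0.12.9 for quantification. The deposited tables list 376 miRNAs per library as a count, not normalized, and as TPM, which was reproduced from the counts and each library's total with a deviation under 0.005. The 300 miRNAs above 5 CPM in at least 2 of the 12 libraries were tested in R 4.3.3 with edgeR 4.0.16 (TMM, glmQLFit, glmQLFTest) in a joint fit of 4 phase groups, or with month as a term for sex. P-values were adjusted over all miRNAs of a comparison. Ratios were log2 of counts with 1 added to each. Permutation tests were written in Python with numpy 2.4.6, with 100000 resamples for correlations, and scipy 1.17.1 gave the Poisson intervals. Levels for correlations were log2 CPM after TMM (prior count 1). The fits were checked on simulated counts with changes larger than those called here for members, so calls near the 2-fold minimum were not covered. Alternatives were DESeq2 1.42.0, the likelihood-ratio test, RLE, library totals, other filters, no minimum fold, a fit of the compared groups alone, a sex term, other scales and pseudocounts, and each library left out. All members, their 3 most alike miRNAs, and the called miRNAs of the lists of muscle-related and cell type miRNAs were named. The members and lists were chosen with earlier results of these data known. The depth of 3135292 to 5788032 counts limits chi-miR-206, chi-miR-133a-5p and chi-miR-133b most. Mature sequences were not used here. Gene neighbors came from RefSeq genes of a goat assembly that is not the one used by the authors, and coordinates were therefore left out.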

Additional observations from a re-analysis of the deposited data

Results flagged for a closer look

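In groups of 4 libraries, 1 library can stand apart from the other 3. Each of the 6 members was examined in telogen and in catagen, 12 groups in all, and 2 values of chi-miR-1 stood apart by Dixon's criterion, where chance marks about 1 in 20 groups. chi-miR-1 had a TPM of 1627 in the male March library, where the other telogen libraries had 2917 to 3168. It had a TPM of 2260 in the male December library, where the other catagen libraries had 3201 to 3279. Both were marked on TPM. On TMM-normalized CPM neither passed the criterion, with 1321 against 2576 to 3045 in telogen (a gap of 0.728 of the range) and 2614 against 3544 to 3938 in catagen (0.702 of the range).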

How the results depend on the processing

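Where a value changed, the cause was not tested unless stated. The count of members called from May to September was 2 with library totals (chi-miR-133a-3p and chi-miR-133a-5p, the latter tested only through telogen and May libraries), a scaling that also lowered the median of all miRNAs by over 0.1, and 0 to 1 when single libraries were left out. From May to catagen it was 0 with library totals, with the filter of 50 CPM and in the fit of the compared groups alone, and 0 to 1 when single libraries were left out. From catagen to telogen it was 1 without a filter (chi-miR-206). From telogen to September it was 1 with library totals (chi-miR-133a-5p) and 0 to 1 when single libraries were left out. chi-miR-1 kept its direction under all 21 alternatives from May to September (0.66 to 1.36) and from May to catagen (0.55 to 1.31). A sex term changed no call of the members. Signs of uncalled differences turned under some alternatives from May to catagen (chi-miR-133a-5p in 2 of 19, -0.69 to 0.32, chi-miR-133b in 6 of 20 and chi-miR-499-5p in 4 of 21), from telogen to May (chi-miR-133a-3p in 4 of 21, chi-miR-133a-5p in 4 of 20 and chi-miR-499-5p in 2 of 21) and from female to male (chi-miR-133a-3p in 2 of 21, chi-miR-133a-5p in 6 of 20 and chi-miR-499-5p in 1 of 21).

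The log2 difference of chi-miR-499-5p from catagen to telogen lay near 0 and turned positive with RLE (0.063), library totals (0.33), DESeq2 (0.065), no filter (0.028), 50 CPM (0.082) and the compared groups alone (0.020), with -0.095 to 0.056 when single libraries were left out. Such ranges were -0.47 to 0.050 for chi-miR-133b from May to September, -0.14 to 0.086 for chi-miR-1 from September to catagen and -0.39 to 0.027 for chi-miR-1 from female to male. The telogen difference of chi-miR-133a-5p over chi-miR-133a-3p was -0.041 from CPM and -0.066 to 0.10 without single libraries, and that of chi-miR-499-5p over chi-miR-133a-3p was -0.46 to 0.073. For chi-miR-133a-3p, chi-miR-133a-5p and chi-miR-133b over chi-miR-1 the difference stayed above 0 without any single library (lowest 0.61, 0.59 and 0.74). Of these, chi-miR-133a-5p had entered the test through telogen and May libraries alone, so its value is no support. All share chi-miR-1 as denominator and are not independent.

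The number of correlated pairs was 3 with log2(TPM + 1) and 5 when levels were centered on phase means, where permutation p-values may be too small. Without the male March library the latter was 0, a fit chosen after seeing the data. chi-miR-1 with chi-miR-133a-3p gave r = -0.079 with log2(TPM + 1), -0.19 to 0.26 without single libraries and -0.24 without the male March and male December libraries, also chosen after seeing the data. chi-miR-1 with chi-miR-499-5p gave r = -0.71 with log2(TPM + 1) (permutation adjusted p = 0.0344), -0.30 to 0.087 without single libraries, 0.10 with centering and no male March library, and 0.080 without both male libraries.

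Calls over all miRNAs moved by over 1.5 times between fits, from 27 to 102 from May to September (55 as reported), 14 to 105 from catagen to telogen (32), 0 to 27 from telogen to May (7), 26 to 111 from May to catagen (50) and 6 to 76 from telogen to September (28). Low counts limit chi-miR-206, chi-miR-133a-5p and chi-miR-133b, and 2 libraries each limit May and September.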
